A study of Homo sapiens with 24 samples.

Results

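Metallothioneins and the zinc handling genes around them were followed through 4 RNA-seq experiments in OE33 cells, a human esophageal adenocarcinoma (EAC) cell line. The 10 genes were chosen by symbol, by matching the Ensembl identifiers of each count table to a fixed list, and all 10 were found among the 61860 identifiers of every table. They are the metallothioneins MT1E, MT1F, MT1G, MT1M, MT1X and MT2A, the zinc-sensing transcription factor MTF1, the zinc exporter SLC30A1 and the zinc importers SLC39A4 and SLC39A10. The 24 libraries formed 8 groups of 3. In the first experiment, OE33 xenografts were taken from male BALB/c-nu mice, which lack T cells. The mice entered the study at 4 weeks of age, were fed for 8 weeks on a normal diet (ND) or one high in fat (HFD), were injected with OE33 cells under the skin, and gave tumors 21 days later. In the second, cultured OE33 cells carried an HA-TRIM15 plasmid or the empty vector (EV) for 48 h. In the other two, OE33 cells carried shRNA against YY2 (shYY2) or against FOXRED1 (shFOXRED1) for 72 h, each beside its own shControl group. TRIM15 is a ubiquitin ligase, YY2 a zinc-finger transcription factor and FOXRED1 a mitochondrial protein needed for respiratory complex I, and the study placed diet, TRIM15, YY2 and FOXRED1 in this order along 1 axis. Each comparison asked how the genes differed between treated libraries and the control group of the same experiment, and the experiments shared no control library. All groups share 1 cell line, and nothing in the labels says that the libraries of a group came from separate cultures or animals, so p-values measure the spread between these libraries only.

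Total counts ran from 14299807 to 45994561 per library. TRIM15 was at 0.61 to 0.66 CPM (counts scaled to one common library size) with HFD and at 0 to 0.037 CPM with ND, and at 5.41 to 11.4 CPM with HA-TRIM15 against 0 in every EV library. TRIM15 lies in the MHC region, which the hg38 build holds in alternate copies. How reads matching more than one copy were counted is not given in the sources used here. These levels may therefore be too low, and 0 does not show that TRIM15 was silent. YY2 fell by 1.82 on the log2 scale in shYY2 cells (adjusted p = 1.3e-06) and FOXRED1 fell by 0.78 in shFOXRED1 cells (adjusted p = 4.06e-05). The 12 epithelial markers were all tested and summed to between 12420 and 19180 CPM in every library. In the xenografts, the human rows of the other marker lists were low beside the epithelial sum. Of the 10 fibroblast markers 1 passed the filter on low counts (COL1A1), and the list summed to 23.9 to 27.3 CPM with HFD and 30.6 to 33.8 CPM with ND. Of the 8 endothelial markers 1 passed (16.9 to 19.6 against 15.5 to 16.4 CPM), and of the 10 leukocyte markers 2 passed (14.9 to 15.0 against 15.9 to 17.6 CPM, with AIF1 at 0). AIF1 lies in the MHC region as well, so the limit given for TRIM15 holds for its 0. Of the 8 adipocyte markers 2 passed (85.6 to 92.5 against 67.6 to 72.9 CPM), nearly all of it PPARG, while ADIPOQ and LEP were at 0. In the cultured control groups (EV and both shControl) the fibroblast list summed to 10.9 to 25.5 CPM and the endothelial list to 15.3 to 28.1 CPM. The leukocyte list summed there to 8.24 to 26.8 CPM and the adipocyte list to 66.4 to 135 CPM. These lists hold human genes, and how reads of the mouse host were set apart is not given in the sources used here. Their part in the diet results was not tested.

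Metallothioneins are small cysteine-rich proteins that bind zinc, copper and cadmium and buffer the free zinc of the cell. When free zinc rises, MTF1 enters the nucleus and binds metal response elements (MREs), short motifs in the promoters of metallothionein genes and of SLC30A1, which encodes the zinc exporter ZnT1 of the plasma membrane. The SLC39 family works the other way and brings zinc into the cytosol: SLC39A4 encodes ZIP4, the importer of the gut epithelium that is lost in acrodermatitis enteropathica, and SLC39A10 encodes ZIP10, whose gene is known to be held down by MTF1.

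The MRE cores were laid out in the promoters as follows. RefSeq (GRCh38.p14) gave a promoter, from 250 bases before to 50 bases after the annotated start, for 5 of the 10 genes (MT1X, MT2A, MTF1, SLC30A1 and SLC39A10). The MRE core was searched as TGCACNC or TGCGCNC on both strands. The MT2A promoter held 8 matches, the MT1X promoter 4 and the SLC30A1 promoter 2. The MTF1 promoter held 0, and the promoters at the 2 starts of SLC39A10 held 0 and 1. Among 35116 RefSeq promoters of the same length, 29.6% held at least 1 match, 8.6% at least 2, 0.601% at least 4 and 0.0199% at least 8, so MT2A stood in the densest 7 promoters. The 250 bases before the start are shown for the 3 genes whose promoters held the most matches, on the strand of the gene, 5′ to 3′, with each match in capitals.
MT2A (chr16:56608334-56608583, plus strand): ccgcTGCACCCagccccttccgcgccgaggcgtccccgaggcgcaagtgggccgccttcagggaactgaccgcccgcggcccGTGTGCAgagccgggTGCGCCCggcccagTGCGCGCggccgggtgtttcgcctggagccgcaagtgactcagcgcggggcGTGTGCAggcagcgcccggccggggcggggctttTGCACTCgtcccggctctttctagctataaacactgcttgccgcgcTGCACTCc
MT1X (chr16:56682220-56682469, plus strand): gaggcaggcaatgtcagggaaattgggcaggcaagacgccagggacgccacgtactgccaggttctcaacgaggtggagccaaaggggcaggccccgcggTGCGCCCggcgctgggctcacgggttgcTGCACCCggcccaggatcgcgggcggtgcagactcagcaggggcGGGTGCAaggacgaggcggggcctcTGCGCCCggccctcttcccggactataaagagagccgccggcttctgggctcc
SLC30A1 (chr1:211579162-211579411, minus strand): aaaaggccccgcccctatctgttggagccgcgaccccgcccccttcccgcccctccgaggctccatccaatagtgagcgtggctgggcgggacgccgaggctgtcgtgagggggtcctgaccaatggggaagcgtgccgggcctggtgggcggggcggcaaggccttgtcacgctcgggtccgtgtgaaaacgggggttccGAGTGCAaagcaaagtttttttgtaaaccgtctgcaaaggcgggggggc
The capitals show 7 of the 8 MT2A matches, all 4 of MT1X and 1 of the 2 of SLC30A1. The remaining match of each of MT2A and SLC30A1 lay in the first transcribed bases, 30 to 36 and 24 to 30 bases past the start. Each of the 3 promoters also held 1 match to the antioxidant response element core TGACNNNGC, outside the MRE matches, which 13.3% of promoters held, and none of the promoters held the YY1-type core GCCATNTT, found in 6.58% of promoters. A match describes letters in this window and is not a measured binding site.

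**Figure D1:**
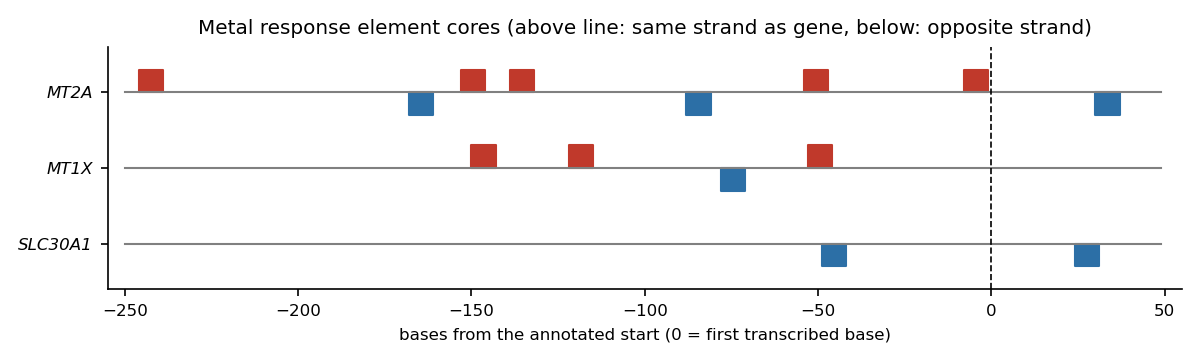
Position of the MRE core matches in the promoters of MT2A, MT1X and SLC30A1, in bases from the annotated start (dashed line, 0 at the first transcribed base). Boxes above each line lie on the strand of the gene and boxes below on the opposite strand. MT2A holds 8 boxes, MT1X 4 and SLC30A1 2.

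MT2A was the most abundant of the 10 genes in every control group on the scale of CPM per kilobase of exon. Its level was 103 ± 5.76 (SD, n = 3) in ND, 168 ± 11.4 in EV, 126 ± 16.0 in the shControl group of YY2 and 24.7 ± 0.67 in the shControl group of FOXRED1. MT1E came next in the first 3 of these groups, at 27.6 ± 1.76, 66.9 ± 2.87 and 56.2 ± 4.58 CPM per kilobase. In the FOXRED1 shControl group SLC30A1, at 13.1 ± 0.16, stood between MT2A and MT1E, at 9.59 ± 1.60, which overlapped SLC39A10, at 7.88 ± 0.90. The middle of the order held SLC30A1, SLC39A10 and SLC39A4 in ND, EV and the YY2 shControl group, where SLC39A10 and SLC39A4 overlapped in EV only. MTF1 and MT1F changed places between groups, at 2.51 ± 0.079 and 3.41 ± 0.25 in ND and at 4.27 ± 0.090 and 2.35 ± 0.21 in EV. MT1X came eighth in every control group, between 0.63 and 2.38 CPM per kilobase.

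MT1M and MT1G were close to absent. MT1M had 0 to 7 counts and MT1G 0 to 2 counts per library, and a count of 0 allows up to 3 counts. Neither passed the filter on low counts in any experiment, so 8 of the 10 genes were tested each time and no fold was computed for the other two. The 6 metallothionein genes lie side by side on chromosome 16, from MT2A (56608584 to 56609497) to MT1X (56682470 to 56684196, both GRCh38.p14), and their transcripts resemble each other. Of the distinct 50-base windows of its transcripts, MT1X shared 18.3% with other genes, MT1G 16.5%, MT1M 9.87%, MT1E 7.1%, MT2A 3.02% and MT1F 1.22%, mostly with other metallothioneins. Values of MT1X in particular are therefore uncertain where the counting could assign such reads to a copy.

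**Figure D2:**
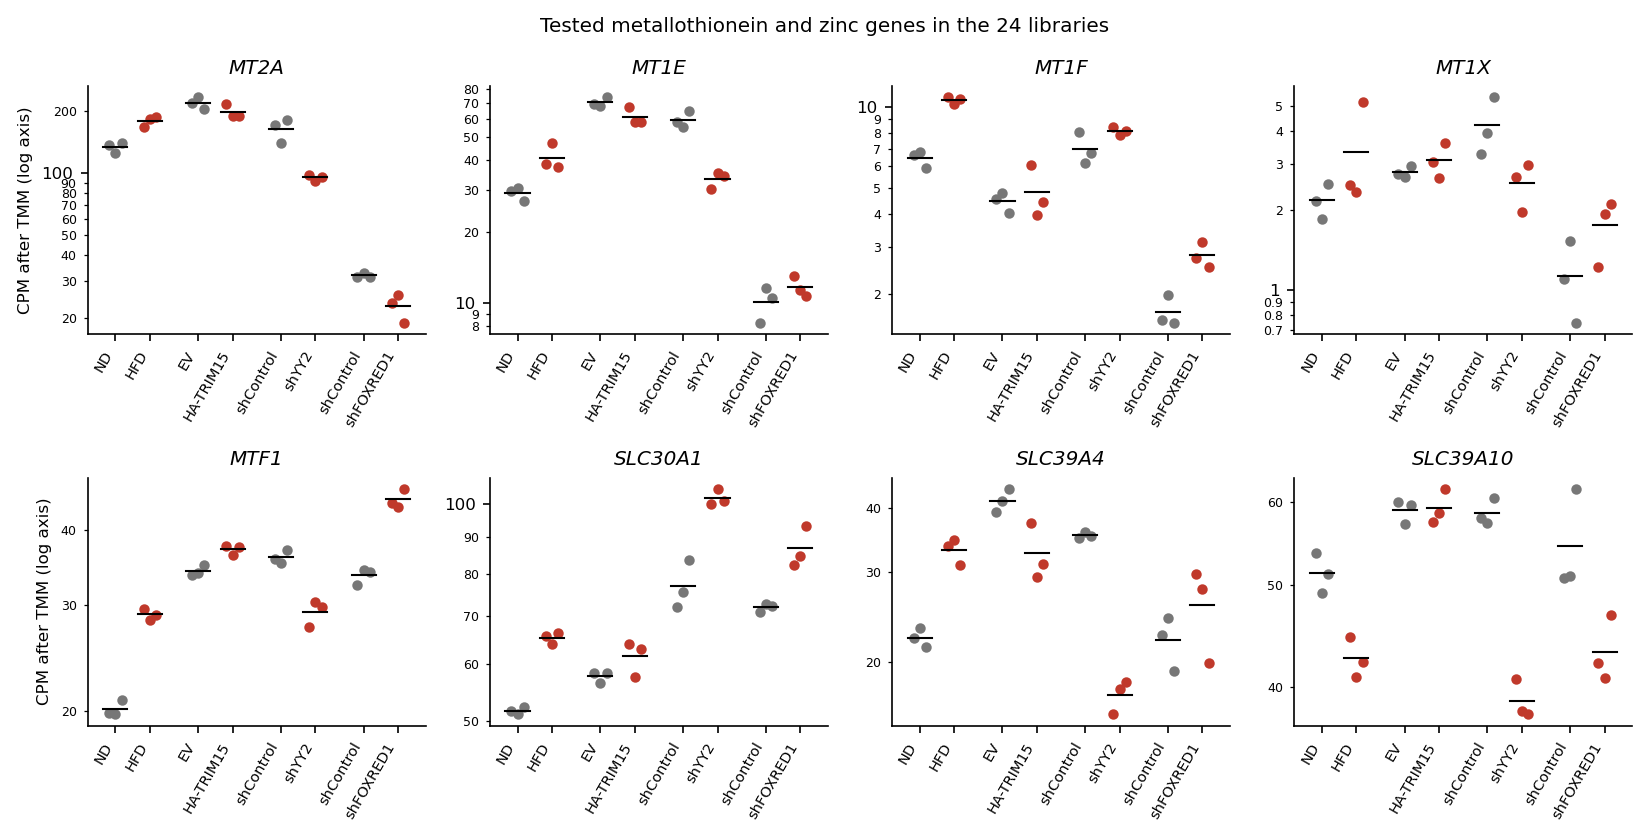
CPM after TMM scaling (log axis) of the 8 tested genes in the 24 libraries. Grey points are control libraries, red points treated libraries and black bars group means, with 3 libraries a group, and the left shControl group belongs to YY2 and the right to FOXRED1. MT2A and MT1E are lowest in the FOXRED1 experiment, where MT2A lies between 18.9 and 33.0 CPM.

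The number of the 8 tested genes that passed the test varied between the 4 experiments, as did the share of all genes that passed. A gene passed at an adjusted p under 0.05 in edgeR's quasi-likelihood test, adjusted by Benjamini and Hochberg's method for every gene tested. With HFD, 7 genes were higher than with ND and 1, SLC39A10, was lower, where 49.5% of all 17012 genes tested were called (25.6% higher and 23.9% lower). With HA-TRIM15, none was higher and MT1E and SLC39A4 were lower, where 22.1% of genes were called (12.5% higher and 9.53% lower). This count, 2 of 8, is close to the background. At an unadjusted p under 0.05, edgeR gave 1 gene higher and 3 lower there, and DESeq2 called 0 higher and 2 lower. Without HA-TRIM15 replicate 2, and likewise without replicate 3, only 1 gene was called. In shYY2 cells SLC30A1 was higher, 6 genes were lower and MT1F was not called, where 75% of genes were called (36.8% higher and 38.1% lower), so that 7 of 8 is close to the background. In shFOXRED1 cells MT1F, MTF1 and SLC30A1 were higher and MT2A and SLC39A10 lower, where 36.6% of genes were called (16.8% higher and 19.7% lower). The CPM of treated and control libraries did not overlap for 7 of the 8 genes with HFD (56.2% of all genes tested), 3 with HA-TRIM15 (37.7%), 7 with shYY2 (76.3%) and 5 with shFOXRED1 (46.7%). The counts with HA-TRIM15 and shYY2 are close to these shares. Scaling by total counts only, in place of TMM, moved the share of higher calls among all calls from 51.7% to 30.4% for HFD, from 56.8% to 40.6% for HA-TRIM15 and from 46.1% to 57.3% for shFOXRED1. It moved the median log2 fold change of all genes with HFD to -0.12, and the 8 calls among the genes in question were made under it as well.

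**Figure D3:**
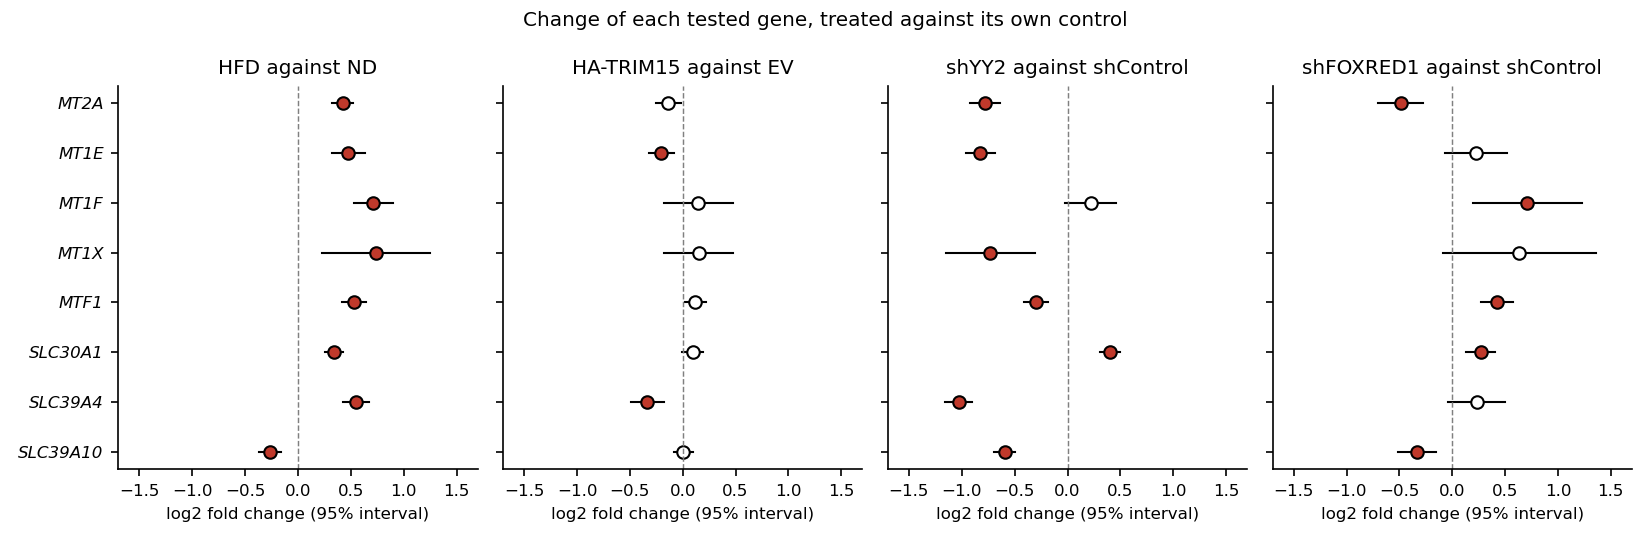
Log2 fold change of each tested gene, treated against its own control, with the 95% interval from the edgeR fit of that experiment (3 against 3 libraries). Filled points passed an adjusted p of 0.05 and open points did not. The HFD points lie to the right of 0 except SLC39A10, and the shYY2 points lie to the left except MT1F and SLC30A1.

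MT2A, the main metallothionein, was higher with HFD and lower after either knockdown. It was at 168, 183 and 187 CPM in the HFD libraries and at 137, 126 and 140 CPM in the ND libraries. The groups did not overlap, and the difference was 1.34-fold (log2 0.42, SE 0.047, adjusted p = 1.42e-06). With HA-TRIM15 it was at 216, 189 and 189 CPM, and with EV at 218, 233 and 204 CPM. These groups overlapped through HA-TRIM15 replicate 1, and the log2 difference of -0.14 (95% interval -0.25 to -0.021) had an adjusted p of 0.0854. Without that library it was -0.20 (adjusted p = 0.00103), and without EV replicate 3 it was -0.19 (adjusted p = 0.0423). In shYY2 cells MT2A was at 98.5, 92.0 and 95.6 CPM, against 171, 140 and 180 CPM in shControl cells. Every knockdown library was below every control library, at 0.58 of the control level (log2 -0.78, SE 0.067, adjusted p = 2.8e-08). With shFOXRED1 it was at 23.5, 25.8 and 18.9 CPM, against 31.5, 33.0 and 31.6 CPM in shControl. Here too the groups did not overlap, with MT2A at 0.71 of the control level (log2 -0.49, SE 0.10, adjusted p = 0.00106).

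MT1E, the second metallothionein by level, had the sign of MT2A in the HFD, HA-TRIM15 and shYY2 experiments. It was at 38.5, 47.4 and 37.5 CPM with HFD and at 29.7, 30.5 and 27.0 CPM with ND. All HFD libraries were higher, by 1.39-fold (log2 0.48, SE 0.075, adjusted p = 5.84e-05). With HA-TRIM15 MT1E was at 67.0, 57.8 and 58.3 CPM, and with EV at 69.4, 68.1 and 73.8 CPM. The highest HA-TRIM15 library was just below the lowest EV library (log2 -0.20, SE 0.055, adjusted p = 0.0167). The call was lost without EV replicate 3 (adjusted p = 0.0898), HA-TRIM15 replicate 2 (0.0815) or HA-TRIM15 replicate 3 (0.0517). In shYY2 cells MT1E was at 30.4, 35.5 and 34.4 CPM against 57.8, 55.2 and 64.5 CPM, at 0.56 of the control level (log2 -0.83, SE 0.065, adjusted p = 9.21e-09). With shFOXRED1 it was at 13.0, 11.4 and 10.7 CPM against 8.25, 11.6 and 10.5 CPM. These groups overlapped, and the log2 difference of 0.22 (95% interval -0.073 to 0.51) did not pass (adjusted p = 0.235).

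MT1F, a low-abundance metallothionein, was higher with HFD and in shFOXRED1 cells. With HFD it was at 10.9, 10.3 and 10.7 CPM, and with ND at 6.63, 6.78 and 5.91 CPM. The groups were well apart, with a 1.64-fold difference (log2 0.71, SE 0.087, adjusted p = 4.11e-06). In shFOXRED1 cells it was at 2.72, 3.14 and 2.53 CPM, against 1.60, 1.99 and 1.56 CPM in shControl (log2 0.71, SE 0.24, adjusted p = 0.0308). That call was lost without shFOXRED1 replicate 1 (adjusted p = 0.0627) or replicate 2 (0.128), and without shControl replicate 1 (0.0972) or replicate 3 (0.0942). In shYY2 cells MT1F was the only metallothionein tested whose mean was not below that of shControl, at 8.40, 7.86 and 8.17 CPM against 8.07, 6.20 and 6.71 CPM. The groups overlapped through shControl replicate 1, and the log2 difference was 0.22 (95% interval -0.021 to 0.46, adjusted p = 0.0907), or 0.33 without that library (adjusted p = 0.0218). With HA-TRIM15 the log2 difference was 0.15 (95% interval -0.18 to 0.47, adjusted p = 0.548), and it turned to -0.078 without HA-TRIM15 replicate 1.

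MT1X, whose promoter carries 4 MRE cores, was the least precise of the tested metallothioneins. With HFD it was at 2.50, 2.35 and 5.17 CPM, and with ND at 2.17, 1.86 and 2.51 CPM. The groups overlapped, and HFD replicate 3 alone was high. The log2 difference of 0.74 (SE 0.24, adjusted p = 0.0187) was 0.19 without that library (adjusted p = 0.44), and the call was also lost without ND replicate 1 (0.0512) or ND replicate 2 (0.0884) and by the DESeq2 Wald test (0.209). In shYY2 cells MT1X was at 2.68, 1.98 and 2.98 CPM, against 3.29, 3.96 and 5.40 CPM in shControl. The groups did not overlap (log2 -0.73, SE 0.20, adjusted p = 0.00358). With HA-TRIM15 the log2 difference was 0.15 (95% interval -0.17 to 0.47, adjusted p = 0.535) and with shFOXRED1 0.64 (95% interval -0.087 to 1.36, adjusted p = 0.163).

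Summed over all metallothionein rows, the mean level had the direction of MT2A in each experiment, and with shFOXRED1 not that of MT1E, whose mean was slightly above control there. MT2A made up most of the counts in every library, so the shared direction is largely built in, and the sum was not tested. The sum was 238 ± 13.1 CPM (SD, n = 3) with HFD and 174 ± 5.82 with ND, a ratio of 1.36 that became 1.26 when libraries were scaled by total counts only. It was 272 ± 22.3 with HA-TRIM15 and 301 ± 12.3 with EV, a ratio of 0.90. These groups overlapped, with HA-TRIM15 replicate 1 at 297 CPM and EV replicate 3 at 290 CPM. It was 143 ± 2.25 in shYY2 cells and 238 ± 26.6 in their shControl cells, a ratio of 0.60. The FOXRED1 experiment stood apart in level: the sum was 39.4 ± 4.50 in shFOXRED1 cells and 45.6 ± 2.78 in shControl cells, a ratio of 0.86. Here too the groups overlapped, with shFOXRED1 replicate 2 at 43.2 CPM and shControl replicate 1 at 43.0 CPM. The shControl cells of that experiment thus held 43.0 to 48.5 CPM of metallothionein RNA and the shControl cells of the YY2 experiment 209 to 261 CPM, although both carried shRNA controls for the same time. The tables were scaled separately, so these are levels and no test was made between them. MT2A made up 54.9% to 59.8% of metallothionein counts in shFOXRED1 cells and 68.1% to 73.2% in their shControl cells, without overlap. In the other experiments the MT2A share lay between 65.6% and 78.7%. In bulk RNA, fewer cells with a transcript and less of it per cell cannot be told apart.

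**Figure D4:**
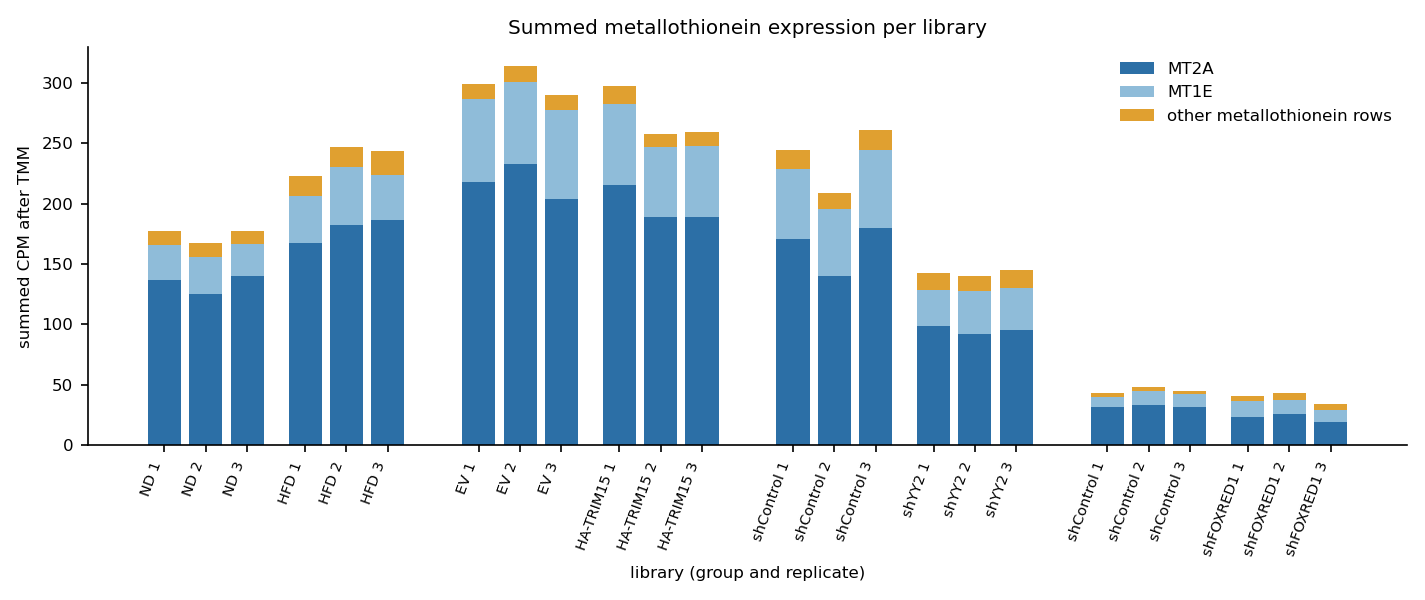
Summed CPM (after TMM) of all metallothionein rows in each library, divided into MT2A, MT1E and the others, with the bars starting at 0 and each library named by group and replicate. The 3 shYY2 bars reach 140 to 145 CPM and their shControl bars 209 to 261, and the FOXRED1 experiment stays under 49.

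MTF1, the metal sensor that acts on the MREs, differed in 3 of the experiments. It was at 29.6, 28.4 and 28.9 CPM with HFD and at 19.8, 19.8 and 20.9 CPM with ND. The groups were far apart relative to their spread (1.44-fold, log2 0.53, SE 0.054, adjusted p = 5.25e-07). In shYY2 cells it was at 27.6, 30.4 and 29.8 CPM against 35.9, 35.3 and 37.0 CPM, lower in all 3 libraries (log2 -0.30, SE 0.053, adjusted p = 8.66e-05). After knockdown of FOXRED1 it was at 44.4, 43.8 and 46.9 CPM against 32.5, 34.3 and 34.1 CPM, higher in all 3 (log2 0.42, SE 0.072, adjusted p = 0.000197). MT2A and MTF1 thus had the same sign with HFD and with shYY2 and opposite signs with shFOXRED1. With HA-TRIM15 MTF1 was at 37.7, 36.3 and 37.5 CPM against 33.7, 33.9 and 35.1 CPM. Those groups did not overlap either, and the log2 difference of 0.12 (95% interval 0.018 to 0.22) had an adjusted p of 0.0855.

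SLC30A1, the exporter that MTF1 induces together with the metallothioneins, had a mean above control in all 4 experiments and passed the test in 3. It was at 65.5, 64.0 and 66.3 CPM with HFD and at 51.6, 51.1 and 52.3 CPM with ND. This was a narrow spread around a 1.27-fold difference (log2 0.34, SE 0.039, adjusted p = 2.14e-06). In shYY2 cells it was at 100, 105 and 101 CPM against 71.9, 75.5 and 83.5 CPM (1.32-fold, log2 0.40, SE 0.047, adjusted p = 1.02e-06). In shFOXRED1 cells it was at 82.3, 84.7 and 93.2 CPM against 70.9, 72.6 and 72.1 CPM (1.21-fold, log2 0.27, SE 0.064, adjusted p = 0.00318). In both knockdowns no treated library overlapped a control library, and SLC30A1 was higher while MT2A was lower. With HA-TRIM15 it was at 63.9, 57.6 and 63.0 CPM against 58.4, 56.5 and 58.3 CPM, and the groups overlapped (log2 0.095, 95% interval -0.003 to 0.19, adjusted p = 0.159).

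SLC39A4, the ZIP4 importer, showed the widest range of log2 fold changes of the 8 genes, from -1.03 to 0.55. It was at 33.6, 34.6 and 30.9 CPM with HFD and at 22.3, 23.3 and 21.4 CPM with ND. All HFD libraries were higher (1.46-fold, log2 0.55, SE 0.058, adjusted p = 7.93e-07). With HA-TRIM15 it was at 37.4, 29.3 and 31.1 CPM, and with EV at 39.2, 41.2 and 43.6 CPM. All HA-TRIM15 libraries were lower (log2 -0.33, SE 0.073, adjusted p = 0.00478), the opposite direction to HFD. In shYY2 cells it was at 15.8, 17.7 and 18.3 CPM against 34.9, 35.9 and 35.3 CPM, at 0.49 of the control level (log2 -1.03, SE 0.061, adjusted p = 2.97e-10). Knockdown of FOXRED1 gave 29.7, 27.7 and 19.9 CPM against 22.6, 24.4 and 19.2 CPM. Those groups overlapped through shFOXRED1 replicate 3, and the log2 difference of 0.23 (95% interval -0.039 to 0.50) had an adjusted p of 0.174. It was 0.38 without that library (adjusted p = 0.00187), and 0.22 (adjusted p = 0.0447) with the replicate number as a block. Deviations of same-numbered libraries of this experiment correlated at 0.012 to 0.078 over all genes tested. Among genes of at least 10 CPM, a subset chosen after seeing the data, they correlated at 0.125 to 0.41. The cause of the gained call was not tested.

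SLC39A10, the ZIP10 importer, was lower in 3 experiments and close to its control in the HA-TRIM15 experiment. It was at 44.7, 40.9 and 42.3 CPM with HFD and at 53.7, 49.1 and 51.2 CPM with ND (log2 -0.26, SE 0.048, adjusted p = 0.000259). SLC39A10 was the only one of the 8 that was lower with HFD. In shYY2 cells it was at 40.7, 38.0 and 37.7 CPM against 57.9, 57.3 and 60.4 CPM (log2 -0.59, SE 0.045, adjusted p = 6.75e-09). In shFOXRED1 cells it was at 42.2, 40.8 and 46.8 CPM against 50.8, 51.0 and 61.7 CPM (log2 -0.33, SE 0.085, adjusted p = 0.00501). No treated library overlapped a control library in these 3 experiments, and SLC30A1 and SLC39A10 moved in opposite directions in each of them. With HA-TRIM15 the log2 difference of SLC39A10 was 0.007 (95% interval -0.085 to 0.099, adjusted p = 0.936), the smallest of the 32, and its sign depended on the scaling, at -0.023 with total counts only.

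Whether the changes differed from 1 experiment to the next was tested in 1 edgeR fit of all 24 libraries. Between HFD and HA-TRIM15, 7 of the 8 genes differed in their log2 fold change, where 28.4% of 17980 genes tested did. The clearest was SLC39A4, whose log2 fold change was larger with HFD by 0.89 (95% interval 0.63 to 1.16, adjusted p = 3.3e-06). MT1E differed by 0.69 (0.45 to 0.92, adjusted p = 2.32e-05), MTF1 by 0.41 (0.27 to 0.56, adjusted p = 2.9e-05) and MT2A by 0.56 (0.36 to 0.77, adjusted p = 6.13e-05). MT1F, SLC30A1 and SLC39A10 also passed, while MT1X, with a difference of 0.58 (-0.13 to 1.28), did not (adjusted p = 0.228). The call was lost for MT1F without HA-TRIM15 replicate 2 (adjusted p = 0.0636), for SLC39A10 without ND replicate 1 (0.0561) or HA-TRIM15 replicate 3 (0.0507), and for SLC30A1 with total counts only (0.0825).

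Between HA-TRIM15 and shYY2, 7 of the 8 genes differed, where 57.4% of genes did. SLC39A10 differed by 0.56 (95% interval 0.39 to 0.74, adjusted p = 1.47e-06), MT2A by 0.61 (0.40 to 0.82, adjusted p = 8.58e-06) and SLC39A4 by 0.66 (0.37 to 0.94, adjusted p = 0.00017), each lower in the knockdown. SLC30A1 differed the other way, by -0.35 (-0.49 to -0.20, adjusted p = 0.000114). The difference of MT1X, 0.84 (0.11 to 1.58, adjusted p = 0.0457), was lost in 8 of the 12 fits that left out 1 library of these experiments. MT1F did not pass, at -0.11 (-0.49 to 0.27, adjusted p = 0.649), and was at 0.025 without HA-TRIM15 replicate 2.

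Between shYY2 and shFOXRED1, 6 of the 8 genes differed, where 55.5% of genes did. SLC39A4 was 1.22 further down with shYY2 (95% interval of the difference -1.53 to -0.92, adjusted p = 3.01e-08). MTF1 differed by -0.68 (-0.83 to -0.53, adjusted p = 1.91e-09), MT1E by -1.01 (-1.34 to -0.69, adjusted p = 2.81e-06) and MT1X by -1.32 (-2.20 to -0.44, adjusted p = 0.0102). For MT2A, lower in both knockdowns, the difference of -0.26 (-0.53 to 0.011) did not pass (adjusted p = 0.0974), though it did with total counts only (0.0235), with no filter on low counts (0.00324), and without shControl replicate 2 of the YY2 experiment (0.0117) or shFOXRED1 replicate 3 (0.0191). MT1F, at -0.45 (-0.93 to 0.018, adjusted p = 0.0967), passed with total counts only (0.0463). SLC30A1 differed by 0.18 (adjusted p = 0.0345) and SLC39A10 by -0.22 (adjusted p = 0.0396), and these calls were lost in 7 and 6 of the 12 fits that left out 1 library, with adjusted p up to 0.154 and 0.143. The SLC30A1 difference was also lost with no filter (0.15, adjusted p = 0.142) and fell to 0.093 with total counts only (adjusted p = 0.275).

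The other genes of the pathway were taken from lists by family, and their counts stand beside 49.5% of all genes called with HFD, 22.1% with HA-TRIM15, 75% with shYY2 and 36.6% with shFOXRED1. Among 15 other metallothionein genes and pseudogenes, 1 was tested with HFD, 2 with HA-TRIM15, 1 with shYY2 and 0 with shFOXRED1. The transcribed pseudogene MT1L was at 2.99 CPM with HFD and 2.04 CPM with ND (log2 0.49, adjusted p = 0.026), and at 2.22 CPM with shYY2 and 2.91 CPM in shControl (log2 -0.39, adjusted p = 0.0445). Both calls were lost with total counts only (adjusted p = 0.0728 and 0.0527), and DESeq2 made neither. They were also lost without HFD replicate 2 (0.125), ND replicate 1 (0.05) or ND replicate 3 (0.0714), and without shYY2 replicate 1 (0.112) or 2 (0.117) or shControl replicate 1 (0.122) or 3 (0.122). MT1A, at 0.35 CPM with HA-TRIM15 and 0.76 CPM with EV (log2 -1.11, adjusted p = 0.0294), was named after its value was seen. DESeq2 did not call it, and the call was lost without EV replicate 2 (0.108), EV replicate 3 (0.0803), HA-TRIM15 replicate 1 (0.0599) or HA-TRIM15 replicate 3 (0.109). MT3 and MT4, the brain and squamous epithelium forms, were at 0 in every library.

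Of 10 other zinc exporters (the SLC30 family and TMEM163), 6 were tested in each experiment. With HFD 3 were higher and 1 was lower, though no exporter was called higher with total counts only. TMEM163 fell from 7.43 ± 0.97 CPM (SD, n = 3) with ND to 3.36 ± 0.22 with HFD (log2 -1.15, adjusted p = 5.48e-07). With HA-TRIM15 none of the 6 was called, by edgeR also at an unadjusted p under 0.05 and by DESeq2. With shYY2 SLC30A4, an exporter into vesicles, was higher (log2 0.41, adjusted p = 0.00119) and 3 were lower. SLC30A6, a Golgi transporter, fell from 60.9 ± 1.92 to 28.6 ± 0.41 CPM (log2 -1.09, adjusted p = 3.88e-12), and SLC30A5, its early secretory pathway partner, was at log2 -0.37 (adjusted p = 2e-07). With shFOXRED1 TMEM163 was higher (log2 0.40, adjusted p = 0.0082) and SLC30A9, the mitochondrial zinc transporter, was lower (log2 -0.48, adjusted p = 4.54e-05). The median log2 fold change of the 6 was 0.16, 0.001, -0.19 and -0.039 in the 4 experiments, beside -0.012, -0.007, -0.008 and 0.012 over all genes tested.

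Of 12 other zinc importers of the SLC39 family, 8 were tested in each experiment. With HFD 3 were higher and 2 lower, or 1 and 5 with total counts only and 2 and 0 by DESeq2. SLC39A8, which carries zinc and manganese, was at 21.0 ± 0.79 CPM with HFD and 14.8 ± 0.69 with ND (log2 0.49, adjusted p = 8.19e-06). With HA-TRIM15 2 were higher, SLC39A6 (log2 0.18, adjusted p = 0.00567) and SLC39A14 (log2 0.12, adjusted p = 0.0102), and SLC39A3 was lower (log2 -0.26, adjusted p = 0.0268), while DESeq2 called 2 higher and 0 lower. The SLC39A3 call was lost without EV replicate 1 (0.0977) or 3 (0.085) or HA-TRIM15 replicate 2 (0.0969) or 3 (0.0547), that of SLC39A14 without EV replicate 2 (0.0593) or 3 (0.0681), and that of SLC39A6 without EV replicate 3 (0.0533). With shYY2 SLC39A11 was higher (log2 0.21, adjusted p = 0.000456) and 4 were lower. SLC39A3 fell from 13.2 ± 0.57 to 5.38 ± 0.72 CPM (log2 -1.29, adjusted p = 1.69e-08) and SLC39A8 from 21.2 ± 1.23 to 9.38 ± 0.61 CPM (log2 -1.18, adjusted p = 1.74e-09). The other two, SLC39A6 (log2 -1.07) and SLC39A14 (log2 -1.06), were named after their values were seen. The list of 12 summed to 352 to 357 CPM in shYY2 libraries and 504 to 515 CPM in shControl libraries. With shFOXRED1 edgeR gave 0 higher, also at an unadjusted p under 0.05 and by DESeq2, and 3 lower, among them SLC39A8 (log2 -0.50, adjusted p = 0.00185) and SLC39A9 (log2 -0.37, adjusted p = 0.00024). The medians of the 8 were -0.050, -0.018, -0.55 and -0.067. SLC39A7, an importer of the secretory pathway in most cells, was counted at a mean of no more than 0.056 CPM in any group. It lies in the MHC region, which the hg38 build holds in alternate copies, and how reads matching more than one copy were counted is not given in the sources used here, so this value does not show that the gene was silent.

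**Figure D5:**
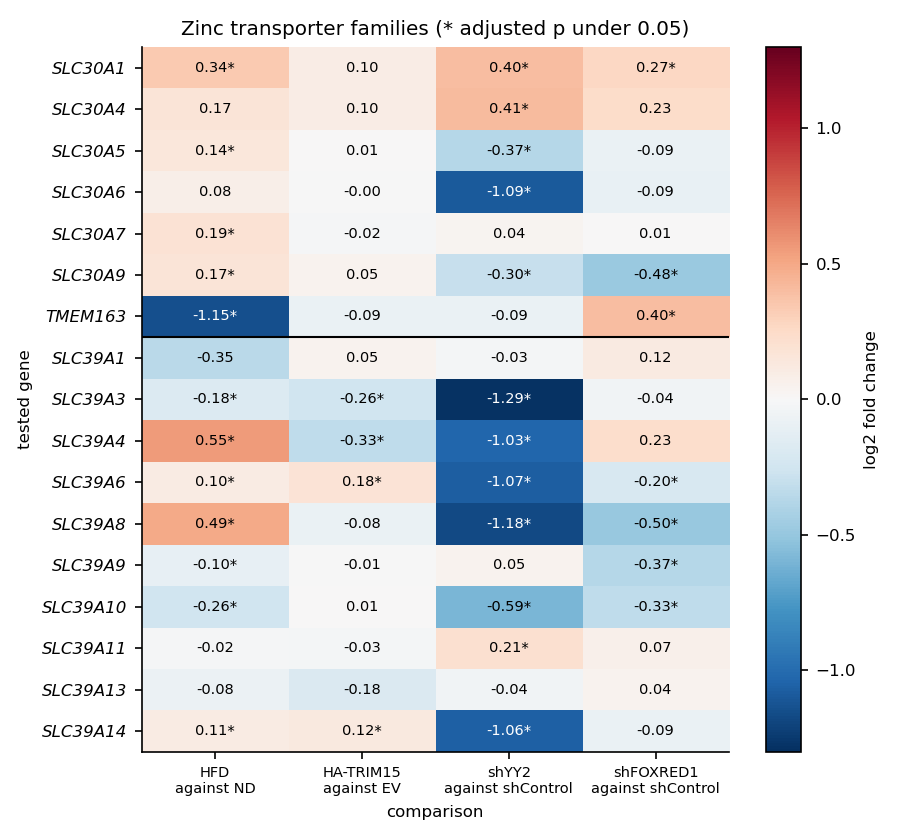
Log2 fold change of the zinc exporters (above the black line, SLC30 family and TMEM163) and importers (below it, SLC39 family) that were tested in all 4 experiments, with a star where the adjusted p was under 0.05. The darkest blue cells are SLC39A3, SLC39A8, SLC30A6, SLC39A6, SLC39A14 and SLC39A4 with shYY2 and TMEM163 with HFD, between -1.03 and -1.29.

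The genes whose pattern over the 24 libraries was most like that of MT2A, after each experiment was centred on its own mean and with metallothioneins left out, were CYB5R2 (Pearson r 0.939), GINS1 (0.938), RBBP7 (0.933), EEF1B2 (0.932) and HNRNPA2B1 (0.931), out of 14515 genes. For SLC30A1 they were OXR1 (0.964), TMEM65 (0.947), ATXN7 (0.941), APOL3 (0.940) and RNF141 (0.938). Among the 8 genes themselves, r was 0.919 between MT1E and SLC39A4, 0.667 between MT1E and MT2A, -0.073 between MT1F and MT2A and -0.81 between SLC30A1 and SLC39A10. The libraries of a group share their treatment, so these values describe the 24 libraries and were not tested.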

How the data were processed

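Each count table, deposited by the authors, held raw read counts per Ensembl gene (61860 identifiers, of which 99.8% were matched to a symbol) for the 6 libraries of 1 experiment. Per the labels, RNA was extracted with a Qiagen kit and libraries were made with a directional NEBNext kit; the study's methods name TRIzol, poly-T beads and the NEBNext Ultra kit, so whether counting used strand is open. The submitters' processing notes list hg38 and mm10 without their roles. The aligner, the counter and the handling of mouse reads are not given in the sources used here. One table's header held 3 empty cells, and its 6 sample names were given to the 6 value columns in their order, with the empty cells dropped.

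Counts were analysed in R 4.3.3 with edgeR 4.0.16: filterByExpr (minimum count 10, minimum total 15), TMM, glmQLFit and glmQLFTest, two-sided, within each experiment; p-values were adjusted by Benjamini-Hochberg for the whole table, with a threshold of 0.05. Differences between experiments were tested in 1 fit of the 24 libraries, so they can depart slightly from the difference of the separate fits. CPM was computed after TMM; per kilobase values used the union of exons in GENCODE 29. Positions and promoters are those of RefSeq on GRCh38.p14. DESeq2 1.42.0, other scalings and filters, a replicate block and leaving out each library were alternatives. The code was run on simulated counts in which few genes changed, in nearly equal number up and down. Such a simulation cannot check the scaling where many genes change. An exact permutation test of 3 against 3 cannot go below p = 0.1 and was not used. Libraries of a group differed by more than counting noise (chi-square per gene 1.45 to 8.00), so none was counted as a repeat sequencing of another. This does not show that they came from separate cultures or animals. Depth was 14299807 to 45994561 counts per library, which sets the counting error. Libraries varied beyond it, the deepest (ND replicate 2) included, and the error given for a gene covers these libraries only.

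The members and gene lists were chosen with earlier results of these data known. Named genes were all 10 members, from each further list at most the 2 genes that rose and the 2 that fell most, if called and at a mean of 1 CPM or more, the 5 genes most correlated with MT2A and with SLC30A1, and the targeted genes. Other genes were named after their values were seen or to give the limits of a list. Groups share replicate numbers. Deviations of same-numbered libraries correlated at most at 0.097 over all genes tested; over genes of at least 10 CPM, a subset chosen after seeing the data, every pair of the shFOXRED1 experiment was over 0.1 (0.125 to 0.41), and in no other experiment was every pair.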

Additional observations from a re-analysis of the deposited data

How the results depend on the processing

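Of 384 values of the 32 member results under the alternatives, 358 kept their direction and their side of the threshold, and 24 of the 32 results did so throughout. The number of members called lay between 7 and 8 for HFD, 1 and 3 for HA-TRIM15 (main count 2, lowest 1 when a library was left out), 7 and 8 for shYY2 and 4 and 6 for shFOXRED1. In all, 2 genes changed sign, both with HA-TRIM15 and neither called: SLC39A10 was at -0.023 with total counts only, -0.006 with no filter, and between -0.022 (without HA-TRIM15 replicate 3) and 0.03 when libraries were left out, -0.015 without EV replicate 2 included, and MT1F lay between -0.078 (without HA-TRIM15 replicate 1) and 0.266; the cause was not tested. With the replicate number as a block, 8, 3, 7 and 6 members were called in the 4 experiments: MT2A joined with HA-TRIM15 (adjusted p = 0.0314) and SLC39A4 with shFOXRED1, and the block changed no other call. MT2A with HA-TRIM15 was also called with total counts only (adjusted p = 0.0293) and with no filter (0.00136). MT1F with shFOXRED1 was not called with no filter (0.0632) or by DESeq2 (0.071). Members whose effects differed numbered 6 to 7, 6 to 7 and 4 to 7 in the 3 pairs of experiments. Over all genes, the 3474 calls with HA-TRIM15 ranged from 2034 (without EV replicate 3) to 5100 (without HA-TRIM15 replicate 1) when a library was left out. Few counts stand behind MT1X and MT1F, at under 11 CPM, and MT1G and MT1M were too low to be tested. MT1X had 197 counts in HFD replicate 3, the deepest HFD library, and 57 and 43 in the other two, at 5.17, 2.50 and 2.35 CPM.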

Other observations

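Further gene lists with links to metal handling were counted in the same fits, with total counts only and the libraries left out in turn as alternatives added after seeing the data. Over all genes tested, 49.5% were called with HFD, 22.1% with HA-TRIM15, 75% with shYY2 and 36.6% with shFOXRED1, and the counts of each list stand beside these shares. Of 13 heavy metal and heat shock stress genes, 10 were tested. HSPA1A and HSPA1B, on this list, lie in the MHC region, so the limit given for SLC39A7 holds for them too. With HFD 7 were higher and 1 lower (3 and 2 with total counts only), led by the mitochondrial chaperonin HSPD1 (889 ± 2.04 CPM against 418 ± 22.6, SD, n = 3, log2 1.09, adjusted p = 2.35e-12). With HA-TRIM15 edgeR called 0 higher and 4 lower (0 and 7 at an unadjusted p under 0.05, 0 and 8 with total counts only, 0 and 3 by DESeq2), DNAJB1 among them (log2 -0.20, adjusted p = 0.000292). With shYY2 2 were higher and 8 lower: HSPH1, a chaperone of the HSP110 family, fell from 412 ± 12.4 to 115 ± 2.81 CPM (log2 -1.84, adjusted p = 3.56e-16) and BAG3 by 1.24 on the log2 scale (adjusted p = 5.91e-14), while the small chaperone HSPB1 was higher (log2 1.08, adjusted p = 1.83e-13). With shFOXRED1 2 were higher and 4 lower (2 and 2 with total counts only), with HSPB1 up (log2 0.63, adjusted p = 1.27e-07) and HSPA8 down (log2 -0.51, adjusted p = 7.91e-08). Their medians were 0.16, -0.12, -0.83 and -0.013. HMOX1 was lower with HFD (log2 -0.23, adjusted p = 0.0199) and not called with HA-TRIM15 (-0.24, 0.086). It was higher with shYY2 (0.38, 0.00139) and with shFOXRED1 (0.48, 0.0395). The HFD call of HMOX1 was lost without ND replicate 2 (0.122), for example, and the shFOXRED1 call without shControl replicate 3 (0.182).

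Of 17 genes listed for copper handling, 7 were higher and 2 lower with HFD (6 and 5 with total counts only), 3 and 2 with HA-TRIM15, 6 and 5 with shYY2, and 2 and 4 of 16 tested with shFOXRED1. With HFD (9 of 17), HA-TRIM15 (5 of 17) and shFOXRED1 (6 of 16) these totals are close to the shares over all genes, and with shYY2 (11 of 17) below it. The totals count MTF2, which is not a copper handling gene. It was among those higher with HFD (log2 0.24), HA-TRIM15 (0.20) and shFOXRED1 (0.23), with adjusted p of 0.00178, 0.00557 and 0.0148. The HFD call of MTF2 was lost with total counts only (0.0542). ATP7A, the copper exporter, fell from 49.8 ± 0.99 CPM with ND to 25.1 ± 0.50 with HFD (log2 -0.99, adjusted p = 5.17e-11), and ATP7B, its relative, was higher with shYY2 (16.6 ± 0.12 against 8.31 ± 0.67 CPM, log2 0.99, adjusted p = 2.42e-08). STEAP4, a metalloreductase, was higher with HFD (log2 0.67), HA-TRIM15 (0.72) and shFOXRED1 (0.57), with adjusted p of 2.31e-08, 9e-06 and 0.000947. Of 18 NRF2 antioxidant targets, 10 were higher and 4 lower with HFD (7 and 5 with total counts only), 2 and 7 with HA-TRIM15 (2 and 8 at an unadjusted p under 0.05, 2 and 4 by DESeq2), 6 and 7 with shYY2 and 7 and 7 with shFOXRED1. Glucocorticoids are known to raise MT2A, and of 14 genes tested from a list of their receptor's targets, 8 were higher and 2 lower with HFD (6 and 4 with total counts only), 8 and 0 with HA-TRIM15 (8 and 0 at an unadjusted p under 0.05, 6 and 0 by DESeq2), 8 and 3 with shYY2 and 5 and 4 with shFOXRED1. Of the HA-TRIM15 calls, NFKBIA (log2 0.42, adjusted p = 2.78e-06) and KLF6 (0.41, 3.57e-07) were the largest. Those of KLF9 (adjusted p = 0.116), SGK1 (0.102), DUSP1 (0.0862) and TFCP2L1 (0.0593) were lost without EV replicate 2. SGK1 (0.0929), DUSP1 (0.0625) and TFCP2L1 (0.109) were also lost without EV replicate 3, and SGK1 with total counts only (0.0882). Without EV replicate 1, SGK1 (0.167) and DUSP1 (0.0599) were lost. Without HA-TRIM15 replicate 3, KLF9 (0.0653), SGK1 (0.08) and TFCP2L1 (0.0611) were lost, and without HA-TRIM15 replicate 2, SGK1 (0.226). The list holds NR3C1, the receptor gene itself, which was among those higher with shFOXRED1 (log2 0.21, adjusted p = 0.0171). PER1, a circadian clock gene, went with shYY2 from 31.3 ± 1.36 to 156 ± 1.75 CPM (log2 2.32, adjusted p = 1.39e-16). KLF9 rose there from 24.9 ± 0.76 to 55.8 ± 1.37 CPM (log2 1.16, adjusted p = 3.04e-12). In the same cells FKBP5, a co-chaperone of the receptor, fell from 36.5 ± 2.03 to 17.3 ± 0.44 CPM (log2 -1.08, adjusted p = 1.43e-10), and TFCP2L1, a transcription factor, was also lower (log2 -0.90, adjusted p = 4.64e-08).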
